A study of Mus musculus with 6 samples.

Results

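The Hox cluster genes were followed in whole-brain RNA of 3 control mice and 3 PLDP mice. Members were all features whose Ensembl identifier carries a symbol of Hox followed by a, b, c or d and a number in GENCODE M21, which gave 39 genes of the 60354 features listed per mouse. The family was picked out with the diet comparison of these same mice already known, so it was selected on these fold changes and its levels under the 2 diets are given as a description, with no p. The study asked what long-term ingestion of PLDP, a protease-treated decomposition product of porcine liver, does to behavior and to gene expression in the brain. All mice were C57BL/6NCrSlc males that were 16 weeks old when feeding began. The PLDP mice (17, 22 and 26) ate a modified AIN-93M diet holding 20% PLDP for 16 weeks, and the control mice (2, 5 and 10) ate modified AIN-93M whose calories had been matched to it. Each diet had 13 mice in all, of which 3 were sequenced. Behavioral tests followed the feeding period, the PLDP diet was not given during testing, and RNA was extracted after the last test. The labels call the tissue whole brain and do not say where the brainstem was cut from the spinal cord.

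Hox genes encode transcription factors with a homeodomain that assign position along the axis from head to tail. They lie in clusters in which gene order follows the order of expression along the axis: low-numbered paralogs are expressed from the hindbrain backwards, and higher numbers begin progressively further back in the spinal cord. Forebrain and midbrain normally express almost none of them, and part of the pattern persists in the adult hindbrain and cord. Genes with the same number in different clusters are called paralogs and descend from 1 ancestral gene.

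On GRCm38 the 11 Hoxa genes were annotated on chromosome 6 between 52155590 and 52260880, on the minus strand. The 10 Hoxb genes lay on chromosome 11 between 96194316 and 96368256, the 9 Hoxc genes on chromosome 15 between 102921103 and 103036852, and the 9 Hoxd genes on chromosome 2 between 74668310 and 74765142, all on the plus strand. The homeobox, the 180 bases that encode the homeodomain, was found in all 39 genes and lay within 1 exon in each. A few are printed here because the levels below turn on their order along the axis: Hoxa5 as the gene with the highest level per kilobase, Hoxb8 as the hindmost gene that passed the filter on low counts, and Hoxb9 as the next gene behind it, which was nearly absent. Each is read from the GENCODE M21 transcript on its coding strand, 5′ to 3′. Capitals mark the 18 bases for a conserved run of residues in the recognition helix, by which each homeobox was located.
Hoxa5, chr6:52202632-52202811, minus strand, exon 2 of 2: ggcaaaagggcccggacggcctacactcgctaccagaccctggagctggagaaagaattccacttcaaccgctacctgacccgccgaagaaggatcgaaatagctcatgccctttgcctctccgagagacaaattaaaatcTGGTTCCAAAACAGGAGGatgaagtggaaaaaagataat
Hoxb8, chr11:96284174-96284353, plus strand, exon 2 of 2: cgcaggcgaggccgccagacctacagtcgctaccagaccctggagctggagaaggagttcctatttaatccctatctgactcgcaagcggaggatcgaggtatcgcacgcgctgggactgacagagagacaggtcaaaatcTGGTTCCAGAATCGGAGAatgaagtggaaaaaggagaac
Hoxb9, chr11:96274659-96274838, plus strand, exon 2 of 2: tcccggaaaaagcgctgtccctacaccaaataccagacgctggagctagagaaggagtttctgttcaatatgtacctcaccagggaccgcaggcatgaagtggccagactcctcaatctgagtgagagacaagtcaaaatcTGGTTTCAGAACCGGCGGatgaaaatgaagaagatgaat

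Compared position by position, Hoxa5 and Hoxb5 matched at 83.9% of the 180 bases, while the neighbors Hoxb8 and Hoxb9 matched at 64.4%. Over all 741 pairs, the 42 pairs of same-numbered genes had a median identity of 80.6%, with a range of 67.2% to 93.9%, and the other pairs had a median of 60.6% and reached 88.9%, so the groups overlapped. No 2 homeoboxes were identical, and the longest stretch without a mismatch in any pair was 52 bases, between Hoxa6 and Hoxb4. How reads shared between genes were treated is not given in the sources used here.

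The libraries were of similar depth, with 18797061 to 23938729 counts per mouse, so a floor of 3 counts corresponds to 0.125 to 0.160 CPM (counts scaled to 1000000 per library). Of all features, 18580 passed the filter on low counts and were tested with edgeR, and 685 of them (3.69%) were called lower and 913 (4.91%) higher under PLDP, the call being an unadjusted p below 0.05. All 9 markers of brain cells looked up passed the filter, with the synaptic gene Snap25 at 1830 to 1914 CPM in the 6 mice. By edgeR, DESeq2 and limma voom 2 of them were lower, which by edgeR were the myelin gene Mbp (fell by 0.12 on the log2 scale, unadjusted p = 0.0138) and the astrocyte water channel gene Aqp4 (177 ± 5.41 against 164 ± 7.79 CPM, unadjusted p = 0.0224), and limma voom also called 1 higher. Within the PLDP group, mouse 17 stood apart from the others: the chi-square per degree of freedom over features was 5.33 between mice 17 and 22 and 5.03 between 17 and 26, against 2.44 between 22 and 26 and 2.36 to 3.12 between control mice. Values of each mouse are therefore given for the Hox genes and for the sums of most lists.

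All 39 genes together had 698, 593 and 563 counts in control mice 2, 5 and 10. They had 490 counts in PLDP mouse 17, 150 in mouse 22 and 164 in mouse 26. The diets did not overlap, but the PLDP mice fell into a high mouse and a pair of low ones. Scaled for library size, the summed level was 29.2 ± 3.74 CPM in control mice and 12.6 ± 8.88 CPM in PLDP mice (mean ± SD, n = 3 each), a difference in log2 means of -1.21. Mouse 17 stood at 77.9% of the control mean, mouse 22 at 21.5% and mouse 26 at 30.0%. The exact 95% Clopper-Pearson interval, per 1000000 raw counts, was 20.8 to 24.9 in mouse 17, 5.30 to 7.35 in mouse 22 and 7.44 to 10.2 in mouse 26, and the lowest bound among the control mice was 24.7. These intervals cover counting error only. Without mouse 17 the log2 difference was -1.96, and without both mice 22 and 26 it was -0.36. In whole-brain RNA, fewer Hox-expressing cells and less Hox RNA per cell cannot be told apart.

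Across the clusters, Hoxb carried most of the signal. It made up 59.6% of the summed Hox level in control mice, Hoxa 25.9% and Hoxd 2.46%, with the rest from Hoxc. The summed Hoxb level was 20.5, 15.7 and 16.1 CPM in the control mice and 13.7, 2.97 and 4.22 CPM in PLDP mice 17, 22 and 26, a log2 difference of -1.32. For Hoxa it was 7.83, 7.11 and 7.80 CPM against 5.43, 1.93 and 2.88 CPM, a log2 difference of -1.15. In both clusters every PLDP mouse was below every control mouse, and mice 22 and 26 were far below mouse 17. Hoxc summed to 4.51, 3.17 and 2.81 CPM in control mice and to 2.97, 0.963 and 1.28 CPM in PLDP mice, where mouse 17 lay inside the control range. Hoxd had only 7 to 20 counts per mouse, and its levels of 0.672, 0.906 and 0.581 CPM in control mice and 0.650, 0.419 and 0.374 CPM in PLDP mice overlapped. Without mouse 17 the log2 difference of the Hoxb sum was -2.28.

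**Figure D1:**
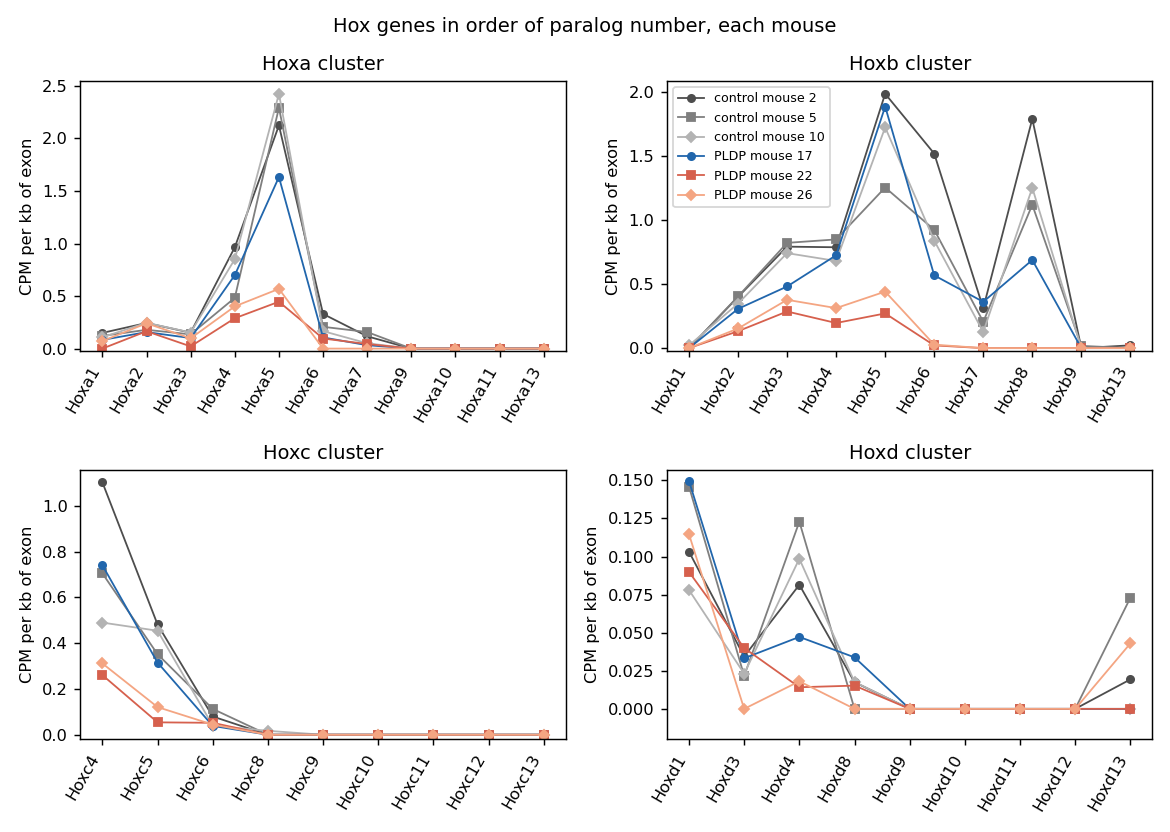
CPM per kilobase of exon of each Hox gene in each mouse, arranged by cluster and by paralog number. Levels in all 6 mice are near 0 from paralog 9 on, and for the 11 genes that passed the filter PLDP mice 22 and 26 are both below the lowest control mouse.

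The members divided sharply by paralog number. All 23 genes numbered 1 to 8 had at least 1 count, with 2649 counts over the 6 mice. Of the 16 genes numbered 9 to 13, 13 had no count in any mouse and the other 3 had 9 counts between them: Hoxb9 and Hoxb13 with 1 each and Hoxd13 with 7. With no count, a gene may still have up to 0.125 to 0.160 CPM in a mouse by the floor of 3 counts. A further 3 genes had from 1 to 5 counts in all, namely Hoxb1, Hoxc8 and Hoxd8. Of all untested genes, 10, with Hoxd13 among them, had between 7 and 46 counts in all, and 11 genes, with paralog numbers 2 to 8, passed the filter. Hoxa2 with 46 counts was the highest member outside the filter, and Hoxa3 with 83 counts was the lowest inside it.

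The shortfall in mice 22 and 26 differed by paralog number. Genes numbered 1 to 3 summed to 6.77, 6.66 and 6.25 CPM in control mice and to 4.60, 2.43 and 3.52 CPM in mice 17, 22 and 26, which were 70.1%, 37.0% and 53.7% of the control mean. Genes numbered 4 and 5 stood at 91.2%, 21.9% and 31.7% of the control mean in those mice. Genes numbered 6 to 8 stood at 56.0%, 6.09% and 2.33%, with 188, 132 and 116 counts in control mice and 83, 10 and 3 counts in PLDP mice. As sums, mice 22 and 26 therefore retained progressively less from the front groups to the back group, while mouse 17 was highest for the middle group. Most counts of the back group came from Hoxb6 and Hoxb8, and its rarer members varied. Hoxc6 had 4, 6 and 2 counts in control mice and 2, 3 and 2 in PLDP mice. Mouse 22 stood at 40.9% of the control mean for Hoxa6 and 40.3% for Hoxa7, on 2 and 3 counts, and mouse 26 had none of either. By single numbers the order was not smooth, since mouse 22 had 33.3%, 43.5% and 34.8% for paralogs 1, 2 and 3, then 30.6%, 17.2%, 9.90%, 19.6% and 1.13% for paralogs 4 to 8. Mouse 26 had 74.3%, 55.5% and 50.6% for paralogs 1 to 3, then 42.0%, 26.1%, 6.31%, 0% and 0%. Paralogs 1 and 7 rest on at most 17 counts in a mouse.

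**Figure D2:**
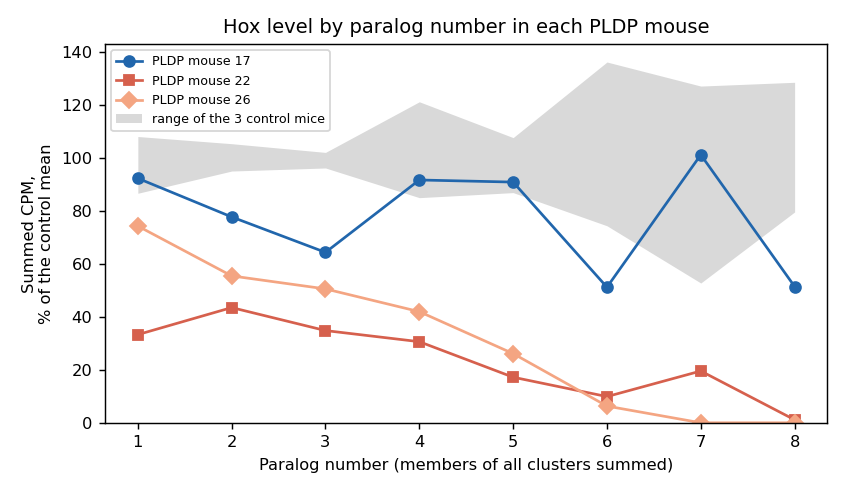
Summed CPM of the Hox genes of each paralog number in each PLDP mouse, as a percent of the mean of the 3 control mice. At paralog 8 mouse 17 is at 51.5%, mouse 22 at 1.13% and mouse 26 at 0%.

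The 11 genes that passed the filter all had lower mean levels in PLDP mice, where 50.2% of all features tested had a log2 fold change below 0. Their median log2 fold change was -1.05, against -0.000618 for all features. In 7 of the 11 even the highest PLDP mouse was below the lowest control mouse, which held for 6.9% of all features tested. Mice 22 and 26 were each below the lowest control mouse in 11 of 11, where the shares over all features were 28% and 28.3%. Mouse 17 was below it in 7 of 11, against 29.2% of all features, and mice 22 and 26 were both below mouse 17 in 11 of 11, against 37.9%. The choice of the family used this contrast, so nothing is read from these shares.

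The front genes of the set act in rhombomeres, the segments of the embryonic hindbrain. Hoxb2, which takes part in the identity of the fourth rhombomere and of facial motor neurons, had 29, 31 and 25 counts in control mice and 23, 11 and 10 in PLDP mice. Its level was 1.34 ± 0.109 CPM against 0.687 ± 0.331 CPM, a log2 fold change of -0.96 ± 0.31 (SE), with every PLDP mouse below every control mouse. Hoxb3 had 70, 77 and 65 counts against 44, 29 and 30. Its level of 3.33 ± 0.172 CPM against 1.62 ± 0.415 CPM gave -1.05 ± 0.20, the smallest error of the 11, again without overlap. Of its exonic bases, 52.9% are shared with other annotated features, among them the antisense transcript Hoxb3os, and whether the counting used strand is not given in the sources used here. Hoxa3, which with the other paralogs numbered 3 patterns the caudal hindbrain and pharyngeal arches, had 19, 18 and 19 counts against 13, 3 and 11. Mouse 26 was close to mouse 17 for Hoxa3 at 66.5% and 68.4% of the control mean, and mouse 22 stood at 14.2%. The log2 fold change of Hoxa3 was -1.05 ± 0.41, or -0.56 without mouse 22, and 27.1% of its exonic bases are shared with other features.

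Paralogs 4 are expressed from the caudal hindbrain into the cord. Hoxa4 had 32, 17 and 28 counts in control mice and 24, 11 and 12 in PLDP mice, Hoxb4 had 42, 48 and 36 against 40, 12 and 15, and Hoxc4 had 59, 40 and 26 against 41, 16 and 15. In all 3 genes mouse 17 lay within the control range and mice 22 and 26 lay below it. The log2 fold changes were -0.72 ± 0.35, -0.92 ± 0.33 and -0.81 ± 0.35 in that order. They were -1.16, -1.63 and -1.43 without mouse 17, and -0.45, -0.55 and -0.51 without mouse 22, and without control mouse 2 that of Hoxc4 was -0.46. Mouse 17 stood at 91.2%, 93.9% and 96.7% of the control mean, mouse 22 at 37.7%, 25.4% and 34.0%, and mouse 26 at 52.4%, 40.5% and 40.7%. Hoxc4 was also the most uneven of the 3 among the control mice, at 2.83, 1.81 and 1.26 CPM.

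Paralogs 5, which in the cord take part in the identity of cervical motor neurons, gave the highest levels. Hoxa5 had 83, 95 and 94 counts in control mice and 66, 20 and 20 in PLDP mice. That was 4.28 ± 0.283 CPM against 1.66 ± 1.22 CPM, a log2 fold change of -1.37 ± 0.30, with no overlap. Hoxb5 had 115, 77 and 99 counts in control mice, 113 in mouse 17, and 18 and 23 in mice 22 and 26. Mouse 17 was thus at 114% of the control mean for Hoxb5, with mice 22 and 26 at 16.4% and 26.7%. The log2 fold change of Hoxb5 was -0.93 ± 0.41, and without mice 22 and 26 it was 0.19. Hoxc5 had 31, 24 and 29 counts against 21, 4 and 7, a log2 fold change of -1.39 ± 0.41 without overlap. Without mouse 17 the log2 fold changes of Hoxa5, Hoxb5 and Hoxc5 were -2.18, -2.24 and -2.33, and without mouse 22 that of Hoxb5 was -0.47. The same-numbered genes therefore differed in mouse 17, which was at 71.6% for Hoxa5, 114% for Hoxb5 and 73.5% for Hoxc5, and were alike in being low in mice 22 and 26.

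Hoxb6 and Hoxb8, which in the embryo begin in the spinal cord rather than the hindbrain, differed most. Hoxb6 had 62, 40 and 34 counts in control mice, 24 in mouse 17, and 1 each in mice 22 and 26. Its level was 2.15 ± 0.726 CPM against 0.403 ± 0.616 CPM, a log2 fold change of -2.39 ± 0.55. Mice 22 and 26 kept 1.95% and 2.49% of the control mean, and the upper bounds of the exact 95% intervals on their levels were 0.233 and 0.296 per 1000000 raw counts. Hoxb8 had 98, 65 and 68 counts in control mice, 39 in mouse 17, and none in mice 22 and 26. The diets did not overlap for either gene, and mouse 17 stood between the control mice and the other PLDP mice, at 51.9% of the control mean for Hoxb6 and 49.6% for Hoxb8. Set against the floor of 3 counts per mouse, a one-sided 95% limit for a count of 0 that leaves the error of the control mean aside, Hoxb8 was at least 29.0-fold lower in mouse 22 and at least 22.8-fold lower in mouse 26 than the control mean of 3.65 ± 0.934 CPM. The fitted log2 fold change of Hoxb8 was -2.57 ± 0.59, in which the PLDP level rests on mouse 17 alone because mice 22 and 26 are at 0. It is no bound. Without mouse 17 the fitted values were -5.35 for Hoxb6 and -9.27 for Hoxb8. The value for Hoxb8 then depends on the prior count because mice 22 and 26 are at 0, and neither value is a bound. With each mouse left out in turn, the fitted values reached up to -1.79 for Hoxb6 and -1.92 for Hoxb8.

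**Figure D3:**
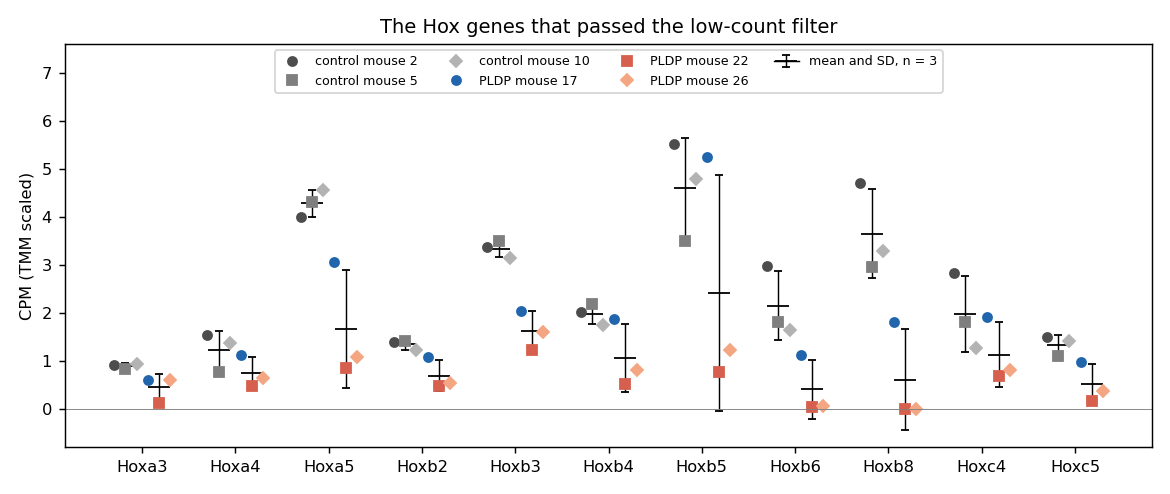
CPM of the 11 Hox genes that passed the filter, with 1 point per mouse and black bars for the mean and SD of each diet (n = 3). For Hoxb6 and Hoxb8, PLDP mice 22 and 26 are at or near 0 and mouse 17 is at 1.11 and 1.81 CPM. Heights are comparable between mice for a gene and not between genes, since CPM is not divided by gene length.

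Per kilobase of exon, the order of levels in control mice was led by Hoxa5 at 2.28 ± 0.151 CPM per kb. Hoxb5 at 1.65 ± 0.370, Hoxb8 at 1.38 ± 0.354 and Hoxb6 at 1.09 ± 0.370 CPM per kb followed. Then came Hoxb3, Hoxb4, Hoxc4 and Hoxa4 at 0.784, 0.771, 0.766 and 0.766 CPM per kb, Hoxc5 and Hoxb2 at 0.430 and 0.383, and Hoxa3 at 0.147. The ranges of the control mice were clear of the next gene in only 4 of 10 neighboring pairs, behind Hoxa5, Hoxb6, Hoxa4 and Hoxb2. Within each of the groups so bounded, neighbors did not differ beyond their spread.

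The 10 untested genes with more than 5 counts summed to 56, 60 and 37 counts in control mice and 40, 24 and 20 in PLDP mice. Of these, 9 had a lower mean in PLDP mice and 1 a higher mean, and 4 had no overlap between diets in CPM. Of the 7264 untested features with 7 to 46 counts in all, 4.63% had every PLDP mouse below every control mouse, and nothing is read from the Hox count. Among the 4, Hoxa6 had 6, 4 and 3 counts in control mice and 2, 2 and 0 in PLDP mice, Hoxa7 had 7, 10 and 3 against 2, 3 and 0, and Hoxd4 had 5, 8 and 6 counts against 3, 1 and 1. Hoxb7, which lies between Hoxb6 and Hoxb8, had 10, 7 and 4 counts in control mice, 12 in mouse 17, and none in mice 22 and 26. Not all genes followed it. Hoxa2, which specifies the second pharyngeal arch and the second rhombomere, had 9, 7 and 9 counts against 6, 7 and 8, and Hoxd1 had 4, 6 and 3 against 6, 4 and 4. At these depths a small difference in either gene was not detectable, and neither gene was tested.

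Windows of 250 bases before to 50 bases after the start were taken from RefSeq on GRCm38.p6, in which 22 of the 39 genes matched, with 24 windows. Those of Hoxa5, with the highest level per kilobase, and Hoxb8, with the lowest level in mice 22 and 26 among the 11 tested genes, are printed 5′ to 3′ on the gene's strand. Capitals mark every match, on either strand, to any of 4 short motifs. TATAAA is a core promoter element that positions the start. CCAAT is bound by the factor NF-Y. AGGTCA is a half-site of nuclear receptors, and TGATNNAT is a form bound by Hox proteins with Pbx partners.
Hoxa5, chr6:52204538-52204837, minus strand: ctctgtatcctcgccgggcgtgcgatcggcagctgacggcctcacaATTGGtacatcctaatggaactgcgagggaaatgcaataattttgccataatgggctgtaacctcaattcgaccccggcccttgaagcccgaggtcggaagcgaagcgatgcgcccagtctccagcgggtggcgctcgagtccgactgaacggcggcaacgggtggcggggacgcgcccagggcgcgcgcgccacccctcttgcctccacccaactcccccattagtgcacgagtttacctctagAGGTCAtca
Hoxb8, chr11:96281655-96281954, plus strand: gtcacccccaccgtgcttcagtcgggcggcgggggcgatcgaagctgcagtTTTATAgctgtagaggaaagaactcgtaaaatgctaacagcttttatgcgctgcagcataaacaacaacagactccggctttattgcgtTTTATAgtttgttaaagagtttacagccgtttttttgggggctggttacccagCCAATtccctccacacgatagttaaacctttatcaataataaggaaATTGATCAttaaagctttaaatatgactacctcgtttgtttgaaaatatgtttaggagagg
Counting from 1 at the 5′ end, the Hoxa5 window held CCAAT at 47 on the opposite strand and AGGTCA, a form of which retinoic acid receptors bind in pairs, at 292. The Hoxb8 window held TATAAA at 52 and 141 and TGATNNAT at 240 on the opposite strand, and CCAAT at 194. These matches did not overlap each other. CpG dinucleotides numbered 29 in the Hoxa5 window and 13 in the Hoxb8 window, against medians of 14.5 in the Hox windows and 7 in all 32851 windows of 300 bases. TATAAA was found in 16.7% of the Hox windows and 13.6% of all windows, CCAAT in 62.5% and 37.4%, AGGTCA in 29.2% and 16.3%, and TGATNNAT in 16.7% and 8.85%. A match describes the letters only.

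Other features annotated inside the clusters numbered 45, mostly noncoding, of which 16 had a count and 4 were tested, with none called by edgeR, DESeq2 or limma voom. Gm11539 had 25, 32 and 25 counts in control mice and 52, 26 and 21 in PLDP mice. Hoxb3os, on the opposite strand to Hoxb3, had 21, 21 and 14 against 28, 10 and 11. Hoxaas2 had 15, 10 and 12 against 17, 7 and 7, and Haglr, at the Hoxd cluster, had 20, 14 and 8 against 21, 5 and 13. In all 4 the count was highest in mouse 17 among the 6 mice, and none of the 4 was at 0 in mice 22 and 26. Some untested features were, such as Hoxb5os with 1, 6 and 1 counts in control mice, 2 in mouse 17 and none in mice 22 and 26. The summed level of the 45 was 5.09, 4.89 and 3.39 CPM in control mice and 6.03, 2.26 and 3.20 CPM in mice 17, 22 and 26. Without mouse 17, 2 of these features were called lower, and 1 was called lower without mouse 26 or without control mouse 10. Hotairm1, at the front of the Hoxa cluster, was not tested and had 13, 14 and 5 counts against 4, 2 and 6.

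Genes just outside the clusters had similar sums in all mice. For the 3 nearest protein-coding genes on each side, 24 in all, the summed level was 1757 to 1765 CPM in control mice and 1753 to 1788 CPM in PLDP mice. Of 23 tested, edgeR called 2 lower and 1 higher, against 3.69% and 4.91% of all features tested. Over the tested genes the median log2 fold change was -0.026. Mtx2, a mitochondrial outer membrane protein gene beside the Hoxd cluster, fell by 0.21 on the log2 scale (SE 0.06, unadjusted p = 0.00245, adjusted p = 0.295), and Hibadh, a valine breakdown enzyme gene beside Hoxa, fell by 0.14 (unadjusted p = 0.018). Hnrnpa1, an RNA-binding protein gene beside Hoxc, rose by 0.11 (unadjusted p = 0.011). The lower calls numbered 4 without mouse 17, and 1 without mouse 26 or without control mouse 2. Evx1, the homeobox gene behind Hoxa13, had 14, 9 and 16 counts against 17, 7 and 11, and its values overlapped between diets.

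Calls among the partners and regulators of Hox proteins are set beside the shares over all features tested, 3.69% lower and 4.91% higher. Pbx, Meis and Pknox proteins bind DNA together with Hox proteins, and the list also held Pbxip1, which encodes a protein that binds Pbx. All 10 genes were tested, with none called by edgeR, DESeq2 or limma voom. Their summed level was 590, 598 and 592 CPM in control mice and 561, 606 and 610 CPM in PLDP mice. Without mouse 17, 1 of the 10 was called lower and 1 higher. Polycomb complexes keep Hox genes silent and Trithorax proteins keep them active, and of 31 such genes 2 were called higher and none lower: Kmt2d, a histone H3 lysine methyltransferase gene, at 145 ± 9.99 against 162 ± 19.9 CPM (log2 fold change 0.16, unadjusted p = 0.0337), and Jarid2, a Polycomb cofactor gene, at 44.6 ± 2.78 against 48.7 ± 1.24 CPM (log2 fold change 0.13, unadjusted p = 0.0411). DESeq2 called none of the 31 higher and limma voom 2. The higher calls were 4 without mouse 17, 3 without control mouse 10, and 0 without PLDP mouse 22, PLDP mouse 26, control mouse 2 or control mouse 5, and without mouse 22 3 genes were called lower.

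Retinoic acid sets the front limits of Hox expression in the embryo. Of 26 genes for hindbrain patterning and retinoic acid, 20 were tested, 3 were called higher by edgeR and by limma voom, 2 by DESeq2, and none lower. Over all features tested, edgeR called 4.91% higher. Rara, a retinoic acid receptor gene, was at 10.1 ± 0.251 CPM in control mice and 12.7 ± 1.59 CPM in PLDP mice (log2 fold change 0.32, unadjusted p = 0.00634, adjusted p = 0.363). Cyp26b1, which breaks retinoic acid down, was at 12.9 ± 0.421 against 15.3 ± 0.465 CPM (log2 fold change 0.25, unadjusted p = 0.00723). Stra6, a retinol uptake receptor gene, was at 7.18 ± 0.601 against 8.53 ± 0.226 CPM (log2 fold change 0.25, unadjusted p = 0.0333). In all 3 every PLDP mouse was above every control mouse, which held for 7.29% of all features tested, in genes singled out by the same diet contrast. Without mouse 26, 1 gene of the list was called lower.

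Markers of the tissue that normally holds Hox RNA gave lower calls in part. Of 16 markers of hindbrain neurons, some of which also mark spinal neurons, 15 were tested and 5 were called lower, among them Slc6a5, Glra1 and Pax8. DESeq2 called 3 lower and limma voom 6. The share called lower by edgeR over all features tested was 3.69%. The serotonin neuron genes Tph2 and Slc6a4 had log2 fold changes of 0.05 and 0.19 (unadjusted p = 0.734 and 0.247). Slc6a5, the glycine transporter of inhibitory neurons of the brainstem and cord, had 1027, 969 and 869 counts in control mice and 666, 534 and 611 in PLDP mice. It fell by 0.66 on the log2 scale (SE 0.10, unadjusted p = 5.53e-06, adjusted p = 0.0369), the only gene of the marker lists to pass after adjustment over all features. The marker lists were chosen with earlier results of these data known. Glra1, a glycine receptor subunit, fell by 0.50 (SE 0.09, adjusted p = 0.0592), and Pax8, a transcription factor of inhibitory interneurons, fell by 1.02 (SE 0.34, adjusted p = 0.381). The summed level of the 16 was 177, 162 and 159 CPM in control mice and 132, 99.5 and 132 CPM in mice 17, 22 and 26. In this sum, most of which came from Slc6a5 and Glra1, mouse 17 was as low as mouse 26, at 79.2% and 79.6% of the control mean, although the Hox sums of those mice were 77.9% and 30.0%. Without Slc6a5 and Glra1 the sum was 38.8, 33.5 and 31.1 CPM against 32.6, 27.8 and 32.2 CPM, and the diets overlapped. Single markers differed in where mouse 17 lay. Pax2, a transcription factor of inhibitory interneurons and among the 5 called lower, was at 5.76, 4.48 and 5.23 CPM in control mice and 4.73, 3.64 and 3.74 CPM in mice 17, 22 and 26, and Lbx1, a transcription factor of dorsal interneurons that was not called, was at 3.75, 2.99 and 3.05 CPM against 3.90, 1.72 and 1.87 CPM. Mouse 17 was within the control range for Pax2 and above it for Lbx1, and mice 22 and 26 were below it for both. The lower calls numbered 3 without control mouse 2.

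Of 13 motor neuron markers, 10 were tested and 4 were called lower, against 3.69% of all features tested. The 4 were Slc5a7, Calcb, Prph and Calca. Slc5a7, the choline transporter of cholinergic neurons, had 235, 236 and 241 counts in control mice and 146, 159 and 168 in PLDP mice, and it fell by 0.60 on the log2 scale (SE 0.12, unadjusted p = 8.51e-05, adjusted p = 0.0785). Calcb, which encodes a CGRP peptide, had 12, 15 and 12 counts against 7, 4 and 4 and fell by 1.37 (SE 0.42, adjusted p = 0.326). Prph, an intermediate filament gene of neurons with peripheral axons, fell by 0.55 (SE 0.20, adjusted p = 0.444), with 187, 199 and 121 counts in control mice and 160, 90 and 97 in mice 17, 22 and 26. Mouse 17 was inside the control range for Prph and mice 22 and 26 were below it. Other cholinergic markers were not called: Chat, the acetylcholine synthesis enzyme, was at 4.91 ± 0.736 CPM in control mice and 5.04 ± 0.524 CPM in PLDP mice (log2 fold change 0.03, unadjusted p = 0.814), and Slc18a3, the vesicular acetylcholine transporter, had -0.10 (unadjusted p = 0.499). The summed level was 70.2, 67.8 and 63.3 CPM against 58.7, 53.5 and 59.4 CPM, without overlap, with mouse 17 at 87.4% of the control mean and mouse 26 at 88.6%. The lower calls numbered 2 by DESeq2, and 2 without PLDP mouse 22 or without control mouse 2. The part of hindbrain and cord tissue in the Hox levels was not tested.

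Markers of other regions and tissues were set beside the Hox sums in the same way. None of 11 cerebellum markers was called by edgeR, DESeq2 or limma voom, with Itpr1, a Purkinje cell calcium channel gene, at 912, 804 and 946 CPM in control mice and 898, 932 and 923 CPM in PLDP mice. Leaving out mouse 17 or control mouse 5 gave 4 lower calls in that list. Of 15 forebrain markers, Bcl11b rose (log2 fold change 0.16, unadjusted p = 0.00947, adjusted p = 0.406), and the summed level was 374 to 381 CPM in control mice and 372 to 403 CPM in PLDP mice. That list had 2 higher calls without mouse 17 and none without mouse 26. Of 7 midbrain markers tested, Pou4f1 fell by 0.56 (unadjusted p = 0.00453, adjusted p = 0.326), and mouse 17 had the lowest midbrain sum at 48.5 CPM while mice 22 and 26 were at 58.5 and 59.7 CPM.

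Of 10 oligodendrocyte markers 4 were called lower by edgeR, against 3.69% of all features tested. Among the 4, Ermn fell by 0.18 on the log2 scale, Aspa by 0.22 and Mbp by 0.12 (unadjusted p = 0.00309, 0.00698 and 0.0138). The sum of the 10 was 5364, 5623 and 5234 CPM in control mice and 5484, 4868 and 4912 CPM in PLDP mice. Mice 22 and 26 were thus at 90.0% and 90.8% of the control mean and mouse 17 was at 101%. This order of the PLDP mice is that of the Hox sums, with a far smaller difference, and its part in the Hox levels was not tested. Leaving out control mouse 5 gave 2 lower calls in that list. For meninges the sums were 135, 113 and 140 CPM against 132, 126 and 121 CPM, with Ogn lower (log2 fold change -0.20, unadjusted p = 0.0449) by edgeR and not by DESeq2 or limma voom. Without control mouse 5, 3 meningeal markers were called lower, and none without control mouse 2, control mouse 10 or PLDP mouse 22. Blood markers gave no call by any of the 3 tools, with 4 called lower without control mouse 5, and of 7 skeletal muscle markers found 3 were tested, with none called.

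**Figure D4:**
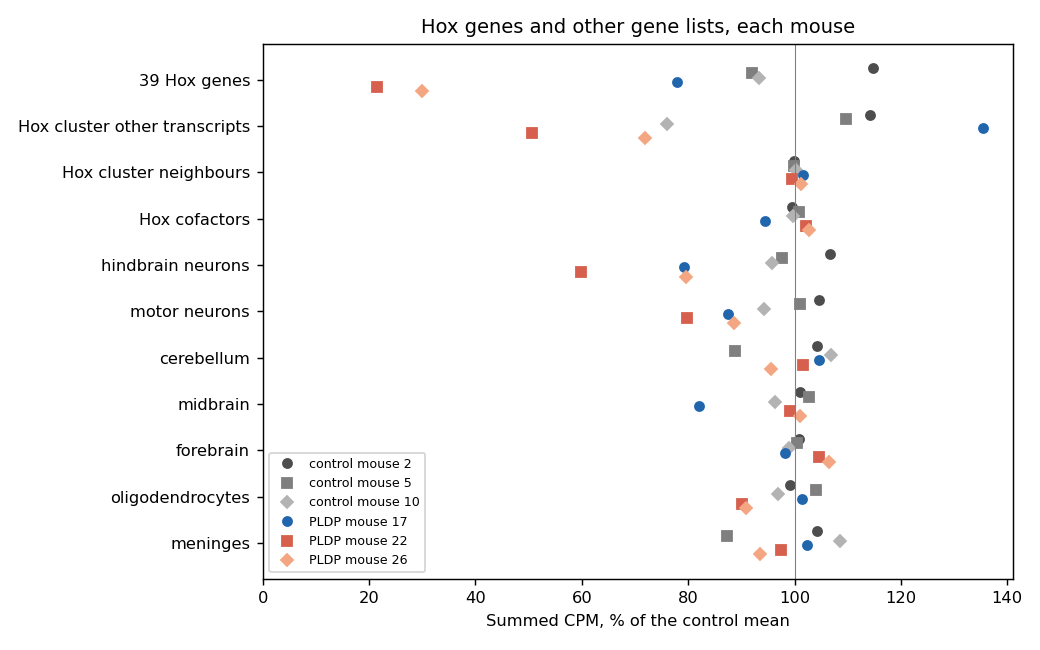
Summed CPM of the Hox genes and of 10 other gene lists in each mouse, as a percent of the control mean. Hox genes in PLDP mice 22 and 26 lie at 21.5% and 30.0%, while hindbrain neuron markers lie at 79.2%, 59.8% and 79.6% in mice 17, 22 and 26.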

How the data were processed

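Whole-brain RNA of 3 control and 3 PLDP mice was sequenced on an Illumina NovaSeq sequencer after TruSeq Stranded mRNA library preparation. The authors deposited 1 file of whole-number read counts per mouse, without normalization. The submitters' processing notes name cutadapt 2.9, HISAT2 2.2.0, featureCounts 2.6.0 and DESeq2 1.6.3 with the builds GRCh38 and GRCm38, and give no roles. The strand setting and annotation used in counting are not given in the sources used here. Symbols and positions came from GENCODE M21 (GRCm38), which held 54777 of 55034 Ensembl identifiers.

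Features were kept by filterByExpr (minimum count 10, minimum total 15), scaled by TMM factors, and the quasi-likelihood functions glmQLFit and glmQLFTest were run in edgeR 4.0.16 (R 4.3.3), with diet as the only term and calls at an unadjusted p of 0.05, the study's threshold, with Benjamini-Hochberg adjustment over all 18580 tested features beside it. CPM used TMM library sizes. Each SE of a log2 fold change was derived as its absolute value divided by the square root of the quasi-likelihood F statistic. Mice were grouped by their labels, and no pair from the same diet agreed within sampling noise. The alternatives were relative log expression factors, library size only, at least 10 counts in every mouse, no filter, DESeq2 1.42.0, limma voom 3.58.1 and leaving out each mouse. Leaving out both PLDP mice 22 and 26 was added after the data were seen. The main edgeR fit was tested on simulated counts, and the alternatives were not.

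The members and the lists were chosen with earlier results of these data known. All 39 Hox genes are accounted for, and a few named genes and sequences are not reported here. In each list up to 3 called genes with the smallest p are named, or otherwise the gene with the highest mean, while further called genes and uncalled ones in the neuron lists, Hoxb5os, Hotairm1 and Evx1 were named after their values were seen. The protein sequences of the members were not used here.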

Additional observations from a re-analysis of the deposited data

How the results depend on the processing

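The direction of the summed Hox levels held under every scaling and when each mouse was left out, with log2 differences from -1.96 to -0.89 for all 39 genes, -1.66 to -0.87 for Hoxa, -2.28 to -0.96 for Hoxb, -1.64 to -0.72 for Hoxc and -0.86 to -0.38 for Hoxd. Without both PLDP mice 22 and 26, which leaves mouse 17 alone, these were -0.36, -0.48, -0.35, -0.24 and -0.15, and the log2 fold change of Hoxb5 turned to 0.19. With 11 Hox genes passing the main filter, 7 passed when 10 counts were required in every mouse, 26 with no filter, and 11 to 12 when a mouse was left out.

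Over all features 1598 were called by edgeR, 926 by DESeq2, and 1133 to 2365 when a mouse was left out. DESeq2 called 3 hindbrain neuron markers and 2 motor neuron markers lower and no Polycomb or Trithorax gene higher, and DESeq2 and limma voom called 0 meningeal markers lower. With no filter, 1 other cluster feature, 2 cerebellum markers and 1 blood marker were called lower. Without mice 22 and 26, 3 hindbrain and 1 motor neuron markers were called lower, in a fit that takes its spread from the control mice alone and assumes that mouse 17 varies like them. When a mouse was left out, calls lower and higher ranged from 1 to 4 and 0 to 2 for cluster neighbors, 0 to 1 and 0 to 1 for cofactors, 0 to 3 and 0 to 4 for Polycomb and Trithorax, 0 to 4 and 0 to 1 for cerebellum, and 0 to 1 and 2 to 3 for hindbrain patterning and retinoic acid. Lower calls ranged from 0 to 2 for other cluster features, 3 to 6 for hindbrain neurons, 2 to 4 for motor neurons, 2 to 5 for oligodendrocytes, 0 to 3 for meninges and 0 to 4 for blood, and higher calls from 0 to 2 for forebrain. The cause of these changes was not tested. No paired analysis was possible because the diets share no mouse numbers.

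Depth limits the genes with few counts: 28 of the 39 Hox genes were not tested, and 3 mice per diet cannot give an exact permutation p below 0.1 for a single value.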
